A study of Mus musculus with 30 samples.

Results

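Genes of tendon and of the myotendinous junction were followed in bulk RNA of the mouse tibialis anterior, the shin muscle that lifts the foot. They are 10 of the 47643 gene rows of the deposited expression table, chosen by name: Scx, Mkx, Tnmd, Kera, Fmod, Thbs4, Comp, Tnc, Prg4 and Col22a1. All 10 were in the table and above 0 in every library. The study holds 30 libraries from male C57BL/6J mice in 8 groups, which form 4 experiments, each with its own reference group. Old mice of 24 months (n = 3) were set against young mice of 6 months (n = 3). Muscle of mice given dexamethasone, a synthetic glucocorticoid, was set against its own control (n = 4 each), and muscle of mice with LLC cancer against its own control (n = 4 each). Muscle with siRNAs against Cyr61, which encodes a secreted matrix protein, was set against muscle with NT siRNAs (n = 4 each). The labels do not spell out LLC or NT. They give no dose, route or duration of dexamethasone, no tumour burden, no way of siRNA delivery, no treatment of the controls and no age outside the ageing experiment. They also do not say how much of the distal tendon was taken with the muscle.

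Tendon cells build a collagen cable that passes force from muscle to bone, and at the myotendinous junction the fibre end folds against that cable. Scleraxis (Scx) and Mohawk (Mkx) are transcription factors that direct tendon cell fate and upkeep, and tenomodulin (Tnmd) is a membrane protein of mature tendon cells that depends on scleraxis. Keratocan (Kera) and fibromodulin (Fmod) are small leucine-rich proteoglycans that bind collagen fibrils. Thrombospondin 4 (Thbs4) and cartilage oligomeric matrix protein (Comp) are pentameric glycoproteins of load-bearing matrix, tenascin-C (Tnc) is a matrix glycoprotein induced by load and injury, and lubricin (Prg4) is a secreted mucin-like protein that lubricates gliding surfaces. Col22a1 encodes a collagen that is deposited at the junction by the muscle fibre.

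Values are TPM, a length-corrected share of the transcripts of a library, made by the authors. The reads that could be recovered from the TPM steps totalled between 27412309 and 54962004 per library. Muscle fibre markers (8 genes, among them Acta1, Ckm and Myh4) summed to between 73939 and 126391 TPM in the 30 libraries, so the labelled tissue carried its defining genes throughout. Mitochondrially encoded genes took 37.9 ± 3.2% of TPM (SD, n = 4) after dexamethasone and 48.7 ± 2.1% (SD, n = 4) in its control. TPM has a fixed total in each library, and the median of all genes tested lay 0.33 higher on the log2 scale after dexamethasone, 0.14 higher in old muscle, 0.05 lower under LLC and 0.07 higher with Cyr61 siRNA. Values were therefore also computed after median-of-ratios scaling, which divides each library by its median ratio to the other libraries and brings these medians to between −0.01 and 0.02. Differences are limma estimates on log2(TPM + 1) with their SE, adjusted p-values are Benjamini-Hochberg values over all genes tested, and a gene is called at an adjusted p under 0.05. Genes under 1 TPM in more libraries than the filter allows were not tested. The labels call the libraries biological replicates. In bulk RNA, fewer tendon cells and less RNA per tendon cell cannot be told apart.

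The 10 genes lie at separate places of the mm10 genome. Scx is at chr15:76457452-76459458 inside the body of Bop1, without sharing an exon with it. Tnmd is at chrX:133850980-133865577, Kera at chr10:97606879-97613692, Fmod at chr1:134037254-134048277, Thbs4 at chr13:92751590-92794818 and Comp at chr8:70373558-70382066. Tnc, at chr4:63959785-64047015, shares exon sequence with 8030451A03Rik. Prg4, at chr1:150449412-150466165, shares it with Tpr, and Col22a1, at chr15:71795795-72034227, with Gm16308. Mkx shares it with AC148004.2. The sources used here do not give the strand setting of the counting, so reads of these overlapping genes could be mixed.

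Promoter windows of RefSeq (GRCm38.p6), from 250 bases before to 50 bases after the annotated start, were at hand for 5 of the 10 genes: Tnmd, Kera, Fmod, Thbs4 and Tnc. They are shown for Tnmd and Kera, which fell both after dexamethasone and under LLC, and for Tnc, which rose after dexamethasone. Capitals mark the letters CANNTG, the E-box that scleraxis and other basic helix-loop-helix proteins can bind. Tnmd spans chrX:133850758-133851057 and Kera chr10:97606955-97607254, both on the plus strand, and the more distal of the 2 annotated Tnc windows spans chr4:64046966-64047265 on the minus strand. The Kera window begins inside the gene as placed above, so the 2 annotations disagree on its start. It holds no sequence before the start at chr10:97606879.
Tnmd: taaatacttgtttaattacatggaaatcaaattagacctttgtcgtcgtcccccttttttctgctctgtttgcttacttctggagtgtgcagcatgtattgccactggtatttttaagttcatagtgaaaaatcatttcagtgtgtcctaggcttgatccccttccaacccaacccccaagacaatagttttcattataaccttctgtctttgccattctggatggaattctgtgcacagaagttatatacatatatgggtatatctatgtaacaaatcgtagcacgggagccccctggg
Kera: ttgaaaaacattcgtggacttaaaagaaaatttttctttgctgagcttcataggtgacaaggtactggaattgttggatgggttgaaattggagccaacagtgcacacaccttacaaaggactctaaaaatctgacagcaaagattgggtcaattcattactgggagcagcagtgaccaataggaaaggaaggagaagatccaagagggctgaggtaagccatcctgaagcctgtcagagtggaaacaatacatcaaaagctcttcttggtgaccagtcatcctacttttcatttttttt
Tnc: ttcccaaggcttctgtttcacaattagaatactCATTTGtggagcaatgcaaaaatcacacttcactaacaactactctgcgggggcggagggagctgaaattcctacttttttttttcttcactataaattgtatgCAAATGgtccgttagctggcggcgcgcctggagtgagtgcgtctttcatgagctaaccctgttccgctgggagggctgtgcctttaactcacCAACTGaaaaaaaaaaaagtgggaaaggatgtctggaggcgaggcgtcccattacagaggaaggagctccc
CANNTG, a palindrome searched without regard to strand, occurred 3 times in this Tnc window, 2 times in that of Thbs4, 1 time in that of Fmod and 0 times in those of Tnmd and Kera. It was present in 72.3% of the 32851 promoter windows of this length. The letters AGAACA, 1 arm of a glucocorticoid receptor site, searched on both strands, were in none of the windows of these 5 genes and in 19.0% of all windows. These are matches of letters in a short window and say nothing about binding.

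Levels differed widely between the 10 genes. Over the 30 libraries, Thbs4 had the highest mean level, 49.4 TPM with a range of 17.3 to 104.5 TPM, followed by Fmod at 17.2 TPM with a range of 2.03 to 41.2 TPM. Scx averaged 8.87 TPM, Tnc 5.51 TPM, Prg4 4.97 TPM, Tnmd 4.11 TPM, Comp 3.82 TPM, Col22a1 2.71 TPM and Kera 2.41 TPM. Mkx stayed below 0.473 TPM in all but the library old 3, which held that value, and reached 1 TPM in none. Tnc and Kera had the widest ranges: the highest library exceeded the lowest 374-fold for Tnc and 365-fold for Kera, against 6.03-fold for Thbs4. The lowest Kera value, 0.0227 TPM in Cyr61 siRNA 1, rests on 1 recovered read.

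The groups ranked differently from gene to gene, with the proviso that the 4 experiments may have been processed apart. Scx, Thbs4, Comp, Tnc, Prg4 and Col22a1 had their highest group mean after dexamethasone. For Tnc and Prg4 that group's range lay wholly above the next group, while for the other 4 it overlapped the next. Tnmd and Kera were highest in the LLC controls, at 7.37 ± 2.17 and 7.10 ± 1.11 TPM (SD, n = 4), and Fmod was highest in old muscle, at 36.3 ± 4.35 TPM (SD, n = 3), where its range did not overlap that of the next group, the LLC controls. The NT siRNA group had the lowest mean of Tnmd, Kera, Fmod, Thbs4, Comp, Tnc and Col22a1. LLC muscle had the lowest mean of Scx, at 3.30 ± 2.72 TPM (SD, n = 4), and young muscle the lowest mean of Prg4, at 1.82 ± 0.765 TPM (SD, n = 3). The plot of values by library shows these patterns.

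**Figure D1:**
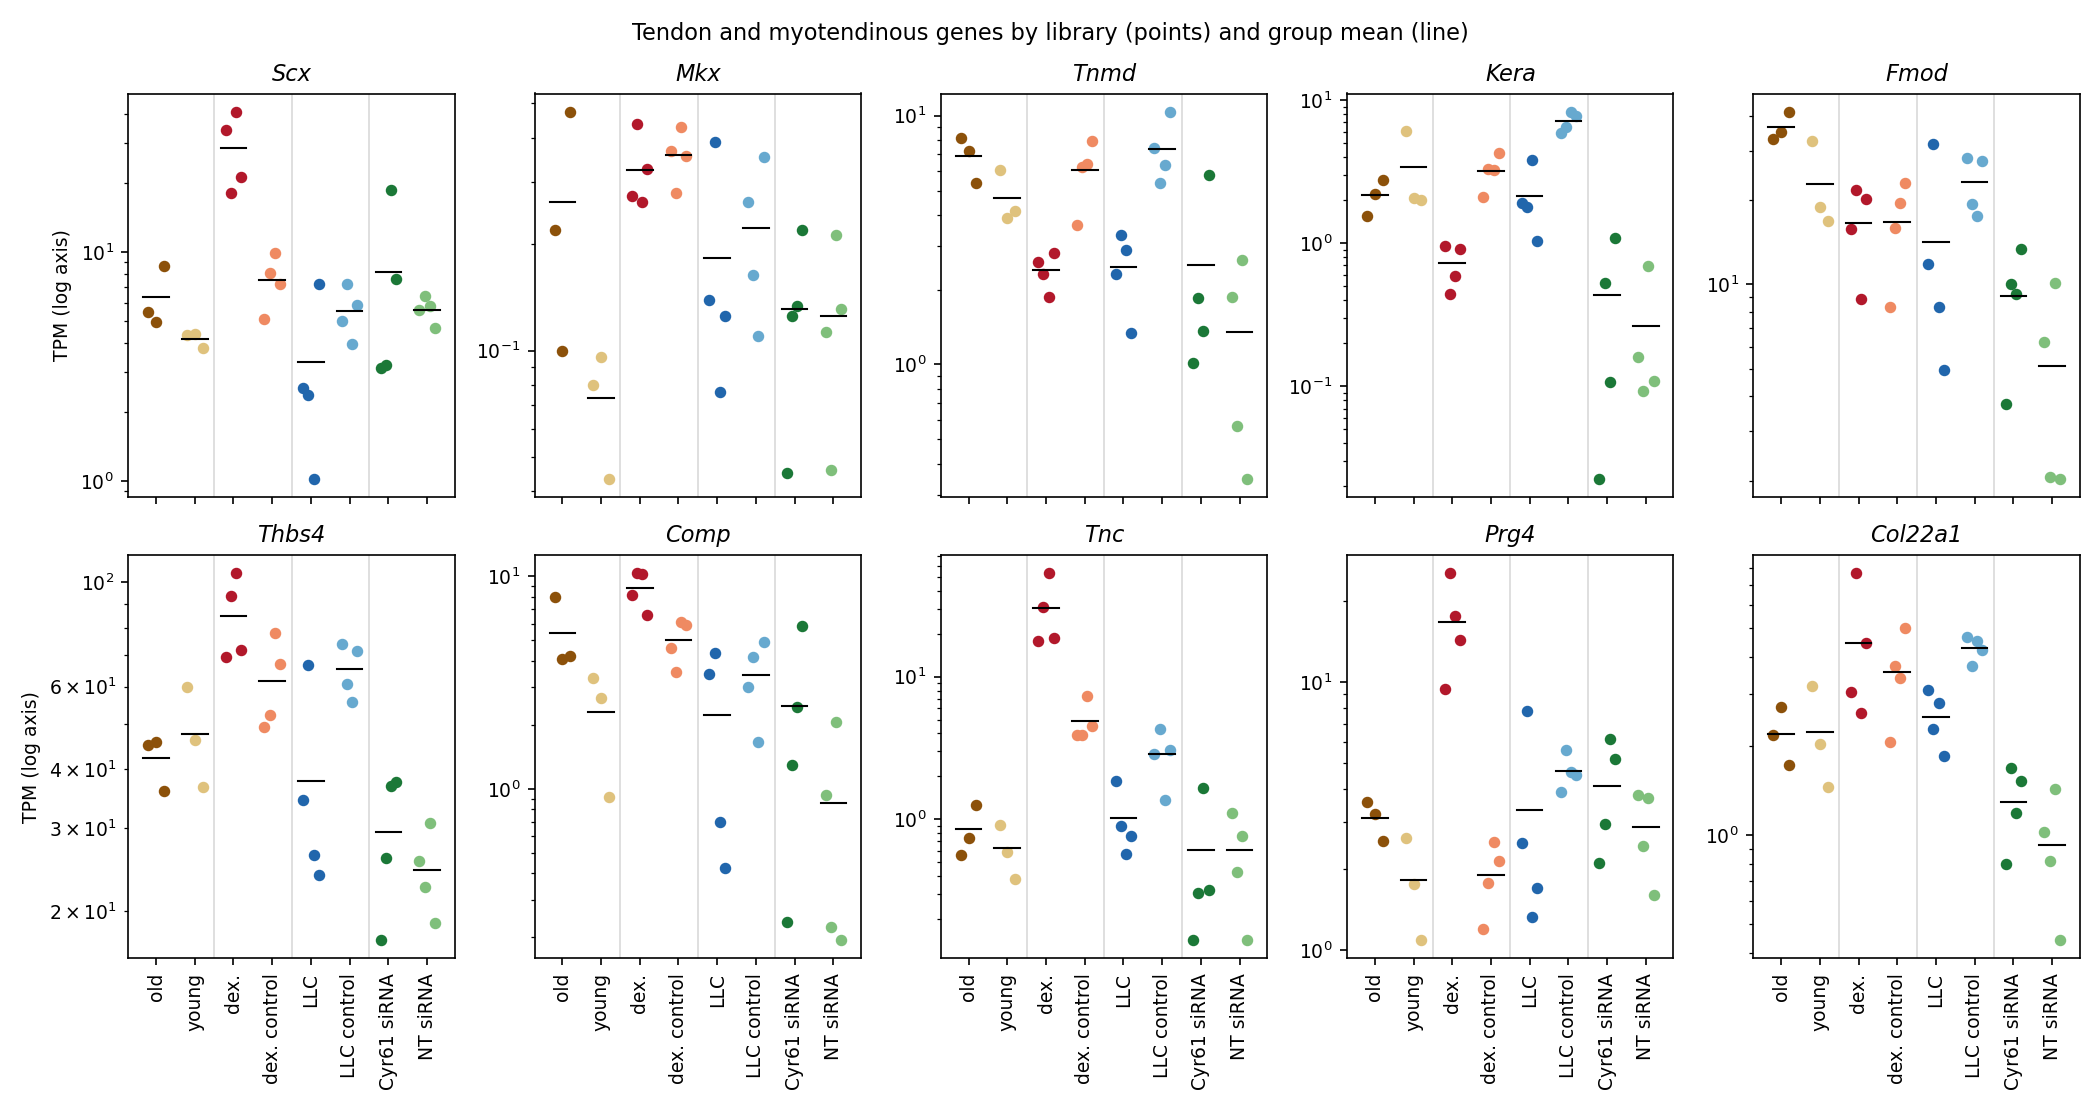
Expression of the 10 genes in each library (points, TPM on a log axis) with the group mean (black line), for 8 groups in 4 experiments separated by grey lines. Tnc and Prg4 stand apart in the 4 dexamethasone libraries, Kera and Tnmd lie below their own controls both after dexamethasone and under LLC, and several genes are low in both siRNA groups.

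Dexamethasone moved the 10 genes in both directions. Prg4, Tnc and Scx rose 8.73-fold, 6.15-fold and 3.77-fold in mean TPM. Comp rose 1.76-fold, a call that was lost with scaling, and Kera and Tnmd fell 4.44-fold and 2.53-fold. Of the 9 genes tested, 4 were called higher, against 35.9% of all 11944 genes tested, and 2 were called lower, against 1.51% of all genes. After median-of-ratios scaling 3 were called higher and 2 lower, where the shares of all genes were 4.44% higher and 4.71% lower. Of the genes called lower, Kera passed the filter through its control libraries alone. The median difference of the 9 genes was 0.46, beside 0.33 for all genes tested.

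Of the transcription factors, Scx had 34.1, 18.0, 40.9 and 21.2 TPM in the 4 dexamethasone libraries, against 5.09, 8.05, 9.88 and 7.21 TPM in the 4 controls. The lowest dexamethasone library stood above the highest control. The log2 difference was 1.74 ± 0.26 (SE, adjusted p = 0.00234), or 1.41 above the median of all genes. Bop1, whose gene body contains Scx, averaged 29.4 ± 2.34 TPM (SD, n = 4) after dexamethasone and 16.3 ± 1.35 TPM (SD, n = 4) in the control, a log2 difference of 0.81 (adjusted p = 0.00126), and its part in the Scx value was not tested. Mkx did not reach the filter. Its values of 0.273, 0.438, 0.263 and 0.325 TPM after dexamethasone overlapped those of the controls, 0.366, 0.278, 0.429 and 0.355 TPM (two-sided exact permutation test, p = 0.486).

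Tnmd had 2.58, 2.30, 1.87 and 2.80 TPM after dexamethasone, against 3.62, 6.23, 6.40 and 7.93 TPM in the controls. All 4 treated libraries lay below all controls, and the mean was 2.53-fold lower. The log2 difference was −1.02 ± 0.19 (SE, adjusted p = 0.00522), or −1.35 relative to the median of all genes. Among the proteoglycans, Kera had 0.958, 0.441, 0.589 and 0.917 TPM after dexamethasone, against 2.10, 3.29, 3.26 and 4.24 TPM in the controls. No treated library reached 1 TPM and no control fell below 2.10 TPM, so the groups did not overlap. Kera thus passed the filter through its 4 control libraries alone. The mean was 4.44-fold lower and the log2 difference was −1.28 ± 0.17 (SE, adjusted p = 0.00161), or −1.61 relative to all genes. Fmod, of the same protein family, had 15.8, 21.7, 8.85 and 20.1 TPM after dexamethasone, against 8.30, 15.9, 19.4 and 22.9 TPM in the controls. These ranges overlapped almost fully, and the log2 difference of 0.01 ± 0.32 (SE, adjusted p = 0.974) turned to −0.33 after scaling.

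Tnc and Prg4 showed the largest increases of the 9 genes tested. Tnc had 18.0, 30.8, 53.2 and 18.8 TPM after dexamethasone, against 3.91, 3.92, 7.27 and 4.53 TPM in the controls, with dexamethasone 3 the highest library of the study. Its log2 difference was 2.30 ± 0.31 (SE, adjusted p = 0.00176), or 1.97 above all genes. Prg4 had 9.44, 25.4, 17.7 and 14.3 TPM after dexamethasone, against 1.20, 1.78, 2.54 and 2.14 TPM in the controls. The lowest treated library stood well above the highest control, and the log2 difference was 2.54 ± 0.26 (SE, adjusted p = 0.000568), or 2.22 above all genes. Tpr, which overlaps Prg4, differed by 0.48 on the log2 scale (adjusted p = 0.0305).

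Comp had 8.17, 10.3, 10.3 and 6.55 TPM after dexamethasone, against 4.60, 3.55, 6.11 and 5.88 TPM in the controls. The groups did not overlap, and the log2 difference of 0.71 ± 0.18 (SE) was called (adjusted p = 0.0169), but it was 0.38 above the median of all genes. After scaling it was 0.39 and no longer called (adjusted p = 0.176, within a range of 0.0106 to 0.176 over its 17 alternatives). Without dexamethasone control 1 its adjusted p was 0.0513, and without dexamethasone control 2 it was 0.0547. Thbs4, the close relative of Comp, had 69.3, 93.6, 104.5 and 71.8 TPM after dexamethasone, against 49.2, 52.2, 78.0 and 66.9 TPM in the controls. The groups overlapped and the log2 difference of 0.46 ± 0.18 (SE) was not called (adjusted p = 0.0614), although it was called without dexamethasone control 3 (adjusted p = 0.0406) or without dexamethasone 1 (adjusted p = 0.0256), in a range of 0.0181 to 0.763 over 17 alternatives. Col22a1 had 3.06, 7.68, 2.58 and 4.47 TPM after dexamethasone, against 2.06, 3.72, 3.39 and 5.03 TPM in the controls, with overlap and a log2 difference of 0.21 ± 0.28 (SE, adjusted p = 0.525).

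For Prg4, Tnc and Scx the adjusted p stayed under 0.05 in every alternative run, with the highest value, 0.0198, for Scx. For Kera and Tnmd it did so in the 16 alternatives that tested them, with the highest value, 0.0220, for Tnmd. Kera and Tnmd did not pass the filter of 5 TPM and were not tested there. The exact permutation test gave p = 0.0286 for these 5 genes and Comp, the smallest value that 4 against 4 libraries allow. These exact p-values are not adjusted over genes, and the share of all genes without overlap was not computed. Other genes around tendon were read beside them, against the 35.9% of all genes called higher and 1.51% called lower, or 4.44% and 4.71% after scaling. Of 13 tested ligands, receptors and binding proteins of TGF-beta and BMP signalling, which drives tendon matrix genes, 10 were called higher and 0 lower after dexamethasone, and 5 higher after scaling, with a median difference of 0.69 beside 0.33 for all genes. Among them Tgfb3 averaged 36.9 ± 5.19 TPM after dexamethasone and 19.2 ± 3.93 TPM in the control (SD, n = 4 each, adjusted p = 0.00413), and the latent binding protein Ltbp2 averaged 4.20 ± 1.93 TPM after dexamethasone and 0.911 ± 0.212 TPM in the control (adjusted p = 0.00437). Of 11 other transcription factors and early response genes linked to tendon 5 were called higher, among them Egr1, at 6.76 ± 1.94 TPM after dexamethasone and 3.46 ± 0.392 TPM in the control (adjusted p = 0.0118), and Sox9, at 2.59 ± 0.543 TPM after dexamethasone and 1.30 ± 0.137 TPM in the control (adjusted p = 0.00637). After scaling 2 of the 11 were called. The median of the 11 was 0.24, below the 0.33 of all genes.

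Of 9 other small leucine-rich proteoglycans, 2 were called higher with and without scaling, a smaller share than that of all genes without scaling, and their median of 0.34 was close to the 0.33 of all genes. Biglycan (Bgn), which binds collagen and TGF-beta, averaged 191 ± 56.7 TPM after dexamethasone and 78.3 ± 19.8 TPM in the control (SD, n = 4 each, adjusted p = 0.00378), and podocan (Podn) averaged 8.96 ± 2.31 TPM after dexamethasone and 4.52 ± 0.908 TPM in the control (adjusted p = 0.0102). Of 9 other genes in the list of thrombospondins, tenascins and partners, 3 were called higher and 1 lower, with 1 higher and 2 lower after scaling, so that the share called higher was near that of all genes. Thrombospondin 1 (Thbs1), which can activate latent TGF-beta, averaged 15.7 ± 6.47 TPM after dexamethasone and 5.25 ± 0.748 TPM in the control (adjusted p = 0.00636). Tnfaip6, a hyaluronan-binding protein gene, averaged 2.77 ± 0.788 TPM after dexamethasone and 4.45 ± 0.477 TPM in the control (adjusted p = 0.0213).

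Among other tendon and sheath cell genes, 6 of 13 were called higher, led by Fibin and Cilp, and 1 lower, Clec3b. All genes were called higher in 35.9% and lower in 1.51%. The median of the 13 was 0.44, and after scaling 1 was called in each direction, beside 4.44% of all genes called higher and 4.71% lower. Of 24 junction and costamere genes of the fibre, 12 were called higher and 4 after scaling, beside 35.9% and 4.44% of all genes. These included Ankrd1, a stretch-responsive ankyrin repeat protein, at 174 ± 53.7 TPM after dexamethasone and 59.6 ± 19.2 TPM in the control (SD, n = 4 each, adjusted p = 0.00321), and Xirp1, an actin-binding repeat protein, at 55.8 ± 17.4 TPM after dexamethasone and 25.3 ± 6.56 TPM in the control (adjusted p = 0.0128). The median difference of the 24 was 0.50, beside 0.33 for all genes.

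Markers of other cells were read in the same libraries. The 8 macrophage markers summed to between 1076 and 2614 TPM after dexamethasone and between 302 and 522 TPM in the control, and 8 of 8 were called higher, 4 after scaling. The 10 fibroblast markers summed to between 982 and 1551 TPM after dexamethasone and between 784 and 1152 TPM in the control, with 3 called higher and 0 after scaling, less than the 35.9% and 4.44% of all genes. Their median difference was 0.29, beside 0.33 for all genes. Smooth muscle and pericyte markers summed to between 2121 and 2800 TPM after dexamethasone and between 1360 and 1683 TPM in the control, with 6 of 7 called higher and 0 after scaling. Adipocyte markers overlapped in sum, with 4 of 5 called higher and 1 after scaling. Of 7 endothelial markers 1 was called lower and 6 after scaling, where their median was −0.44. Cartilage markers stayed low, at sums of 4.82 to 7.47 TPM after dexamethasone and 2.88 to 4.35 TPM in the control, with Matn1 at 0 in both groups. Bone markers overlapped in sum, and 1 of 4 tested, Bglap, was called lower, with and without scaling. Their median difference was −0.62, beside 0.33 for all genes, and −0.80 after scaling. Bglap averaged 0.548 ± 0.498 TPM after dexamethasone and 1.28 ± 0.203 TPM in the control (SD, n = 4 each, adjusted p = 0.0402). Of the 4 tested synovial and sheath markers only Prg4 itself was called. The part of these cells in the values of Prg4, Tnc, Scx, Kera and Tnmd was not tested.

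Under LLC all 9 genes tested had negative differences, and 3 of them, Kera, Tnmd and Col22a1, were called lower, against 0.886% of all 10830 genes tested. All 9 stayed negative with scaling. None was called higher, against 0.295% of all genes. With scaling 2 were called lower and 0 higher, where 1.57% of all genes were called lower and 1.67% higher. The median difference of the 9 genes was −0.89, beside −0.05 for all genes tested.

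Kera had 1.92, 1.79, 3.81 and 1.03 TPM in the LLC libraries, against 5.86, 6.51, 8.28 and 7.75 TPM in the controls. The highest LLC library lay below the lowest control, and the mean was 3.32-fold lower. The log2 difference was −1.43 ± 0.22 (SE, adjusted p = 0.0149), with adjusted p = 0.0539 without LLC control 4 and 0.0574 without LLC 1, in a range of 0.000319 to 0.0839 over 17 alternatives. Tnmd had 2.30, 3.31, 2.89 and 1.33 TPM under LLC, against 7.44, 5.34, 6.33 and 10.4 TPM in the controls. Here too the groups did not overlap, with a mean 3.00-fold lower. The log2 difference was −1.28 ± 0.21 (SE, adjusted p = 0.0201). Leaving out LLC control 1, LLC control 4 or LLC 1 gave adjusted p = 0.0541, 0.0557 and 0.0703, in a range of 0.00343 to 0.0946 over 17 alternatives.

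Col22a1 had 3.09, 2.29, 2.80 and 1.86 TPM under LLC, against 4.67, 3.73, 4.53 and 4.22 TPM in the controls. All LLC libraries lay below all controls, but the log2 difference of −0.60 ± 0.13 (SE, adjusted p = 0.0466) sat close to the threshold. It was called without LLC 3 and lost when any other of the 8 libraries was left out, at adjusted p between 0.0703 and 0.141, as well as after scaling (adjusted p = 0.0851). Over its 16 alternatives the adjusted p ranged from 0.00811 to 0.209. The exact permutation test gave p = 0.0286 for each of Kera, Tnmd and Col22a1, the smallest value possible. It is not adjusted over genes, and the share of all genes without overlap under LLC was not computed.

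The remaining genes were not called, and in most of them 1 LLC library stood apart from the other 3. Fmod had 11.8, 31.6, 8.29 and 4.97 TPM under LLC, against 28.2, 19.4, 17.5 and 27.5 TPM in the controls. Thbs4 had 34.4, 66.6, 26.3 and 23.8 TPM under LLC, against 74.0, 60.7, 55.5 and 71.4 TPM in the controls. Prg4 had 2.52, 7.81, 1.33 and 1.70 TPM under LLC, against 3.87, 5.59, 4.61 and 4.49 TPM in the controls. In all 3 the library LLC 2 was at or above control levels while the other 3 lay below every control. Their log2 differences were −0.94 ± 0.40 for Fmod (adjusted p = 0.346), −0.89 ± 0.26 for Thbs4 (adjusted p = 0.145) and −0.58 ± 0.33 for Prg4 (adjusted p = 0.495). Without LLC 2 they were −1.41, −1.19 and −1.0, each called (adjusted p = 0.0327 for Fmod, 0.0150 for Thbs4 and 0.0206 for Prg4). Over the alternatives of each gene the adjusted p reached up to 0.613 for Fmod, 0.331 for Thbs4 and 0.723 for Prg4, and these 3 values were the lowest.

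Tnc had 1.86, 0.894, 0.575 and 0.759 TPM under LLC, against 2.87, 4.29, 1.38 and 3.04 TPM in the controls. Only LLC 1 reached above a control, LLC control 3, and without that control the difference was called (−1.15, adjusted p = 0.0359), against −0.93 ± 0.24 (SE, adjusted p = 0.0915) with all libraries and a range of 0.00422 to 0.247 over 16 alternatives. Scx had 2.54, 2.37, 1.02 and 7.25 TPM under LLC, against 4.97, 7.26, 3.94 and 5.87 TPM in the controls, with LLC 4 inside the control range and the other 3 below it. Its log2 difference was −0.77 ± 0.33 (SE, adjusted p = 0.351), −0.47 without LLC 3 and −1.15 without LLC 4. Its adjusted p ranged from 0.0482 to 0.596 over 16 alternatives, with the lowest under the replicate block. Comp had 3.47, 4.36, 0.697 and 0.422 TPM under LLC, against 3.03, 4.18, 1.65 and 4.93 TPM in the controls, with overlap and a log2 difference of −0.63 ± 0.40 (SE, adjusted p = 0.572). Left-out libraries moved it to −0.95 without LLC 2, −0.39 without LLC 3 and −0.31 without LLC 4, and voom on recovered reads gave −1.06. Mkx, under the filter, had 0.139, 0.389, 0.0765 and 0.125 TPM under LLC, against 0.263, 0.163, 0.110 and 0.352 TPM in the controls (exact permutation p = 0.657).

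The other lists differed in their medians under LLC, beside −0.05 for all genes. Of 8 tested genes in the list of tendon fibrillar collagens and lysyl oxidase, 1 was called lower, Col5a1, at 4.59 ± 1.96 TPM under LLC and 11.4 ± 2.21 TPM in the control (SD, n = 4 each, adjusted p = 0.0362), and after scaling 4 were, beside 0.886% and 1.57% of all genes. Their median difference was −1.15. None of 9 other small leucine-rich proteoglycans was called, with a median of −0.54, and none of 7 other thrombospondins, tenascins and partners, with a median of −0.60. The 11 tested genes of TGF-beta and BMP signalling had a median of −0.05, the same as all genes, with 0 called. Of the 7 tested tenogenic factors, whose median was −0.14, 1 was called lower: Egr1, an early growth response factor that binds collagen gene promoters in tendon, at 1.24 ± 0.603 TPM under LLC and 4.02 ± 1.23 TPM in the control (adjusted p = 0.0250). Of 11 other tendon and sheath cell genes tested, with a median of −0.42, 1 was called lower, Clec3b, and 2 were after scaling. Clec3b, which encodes tetranectin, averaged 19.8 ± 7.65 TPM under LLC and 43.3 ± 5.48 TPM in the control (adjusted p = 0.0362). It was also called lower after dexamethasone, with 44.4 ± 1.63 TPM after dexamethasone and 58.8 ± 8.61 TPM in the control (adjusted p = 0.0294). Of 3 tested genes in a list of further tendon collagens, with a median of −0.76, 0 were called, and 1 was called lower after scaling. None of the 24 junction and costamere genes, with a median of −0.20, and none of the 8 muscle fibre markers was called.

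Fibroblast markers summed to between 208 and 555 TPM under LLC and between 460 and 577 TPM in the control, with a median difference of −0.73 and 0 of 10 called, or 1 of 10 after scaling. Bone markers summed to between 5.61 and 12.8 TPM under LLC and between 14.7 and 44.7 TPM in the control, and 1 of 4 tested, Bglap, was called lower. Bglap averaged 0.485 TPM under LLC and 3.35 TPM in the control, so it passed the filter mainly through its controls. Macrophage markers summed to between 47.4 and 254 TPM under LLC and between 175 and 368 TPM in the control, with 0 of 8 called. Red cell markers, led by haemoglobin genes, summed to between 717 and 7806 TPM under LLC and between 622 and 792 TPM in the control, with a median difference of 2.10 and 0 of 5 called. Skin keratinocyte markers summed to 45.1 TPM in 1 LLC library, where the LLC median was 1.40 TPM and the highest control 2.59 TPM. The part of any of these markers in the values of Kera, Tnmd and Col22a1 was not tested. Mitochondrially encoded genes took 60.4% of TPM in LLC 3, against 46.5% in the lowest LLC library.

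**Figure D2:**
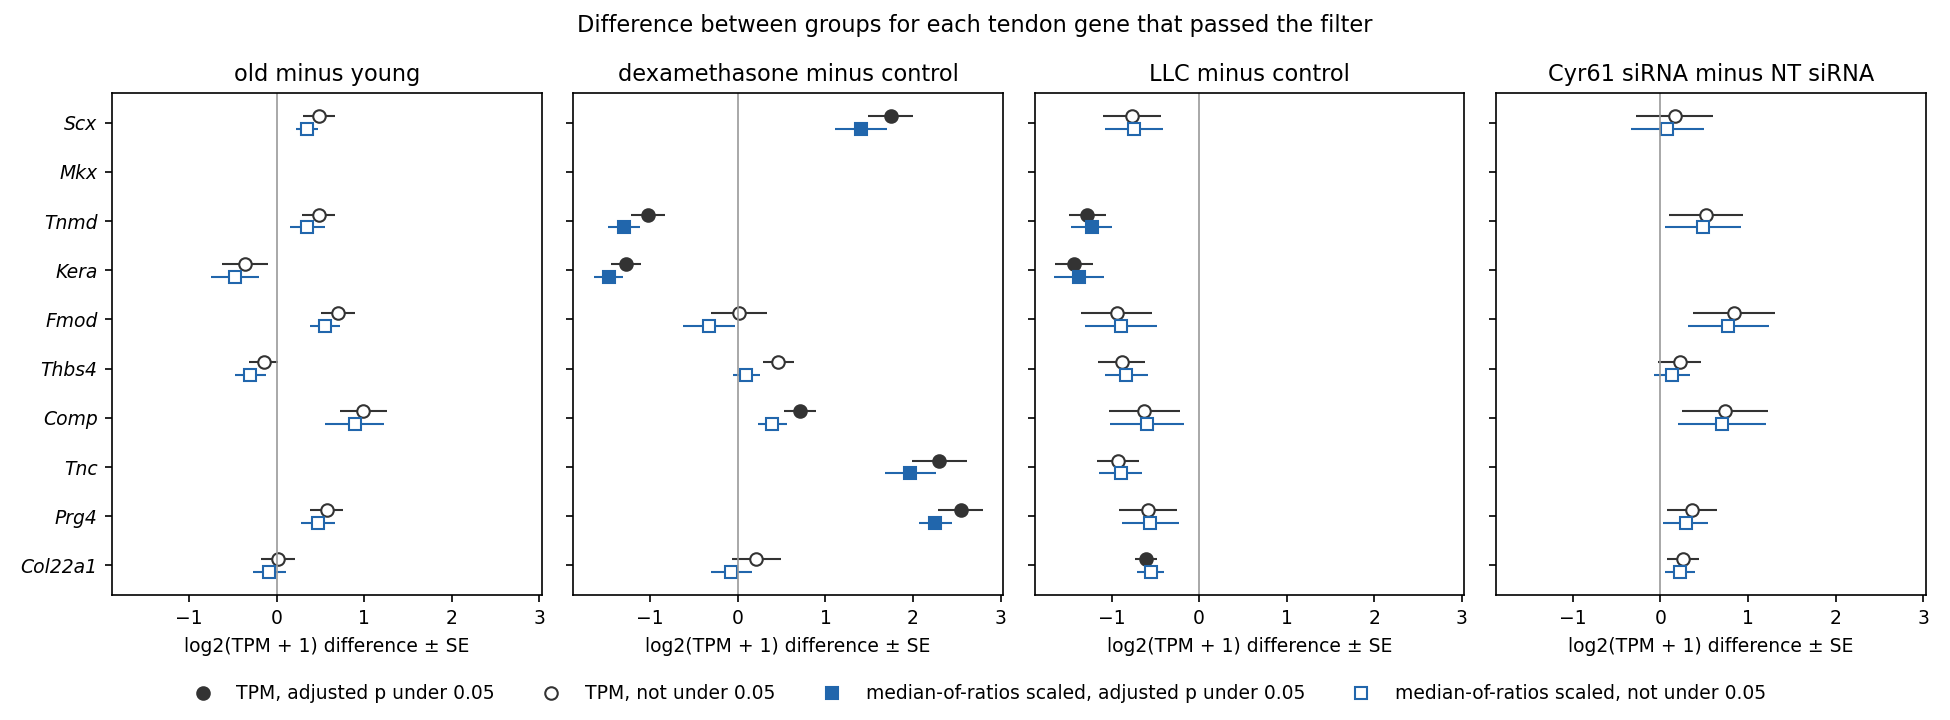
Difference between groups (x, log2(TPM + 1) ± SE) for each gene that passed the filter (y), in the 4 experiments, from TPM as deposited (circles) and after median-of-ratios scaling (squares), filled where the adjusted p was under 0.05. Prg4, Tnc and Scx lie far right and Kera and Tnmd left after dexamethasone, all 9 genes lie left under LLC, and no symbol is filled in the ageing and siRNA experiments.

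The responses to LLC and dexamethasone were compared directly in a model of all 30 libraries. Tnc, Prg4, Scx and Thbs4 had lower differences under LLC than after dexamethasone, by −3.23 ± 0.42 (SE, adjusted p = 3.06e-05), −3.13 ± 0.45 (SE, adjusted p = 0.000128), −2.51 ± 0.53 (SE, adjusted p = 0.00419) and −1.35 ± 0.36 (SE, adjusted p = 0.0133) on the log2 scale. These 4 of 9 tested compare with 25.7% of all 12578 genes called lower, while 0 of 9 were called higher, against 0.867% of all genes. After scaling, Tnc, Prg4 and Scx were still called, against 2.18% of all genes called lower and 1.69% called higher, and Thbs4 was not (adjusted p = 0.0982, in a range of 0.00163 to 0.0982 over 21 alternatives). For Kera and Tnmd the 2 responses differed by −0.15 ± 0.37 (SE, adjusted p = 0.736) and −0.25 ± 0.44 (SE, adjusted p = 0.633). Kera lay under 1 TPM in every dexamethasone library, where adding 1 to the TPM shrinks a difference. With a pseudocount of 0.1 its value was 0.21. Fmod, Comp and Col22a1 also were not called, at −0.95, −1.33 and −0.81, although Comp was called without LLC 2 (adjusted p = 0.0397) and Col22a1 without dexamethasone control 4, dexamethasone 1 or dexamethasone 3 (adjusted p = 0.0383, 0.0250 and 0.0409). Over 21 and 20 alternatives their adjusted p ranged from 0.0397 to 0.415 and from 0.0250 to 0.402.

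**Figure D3:**
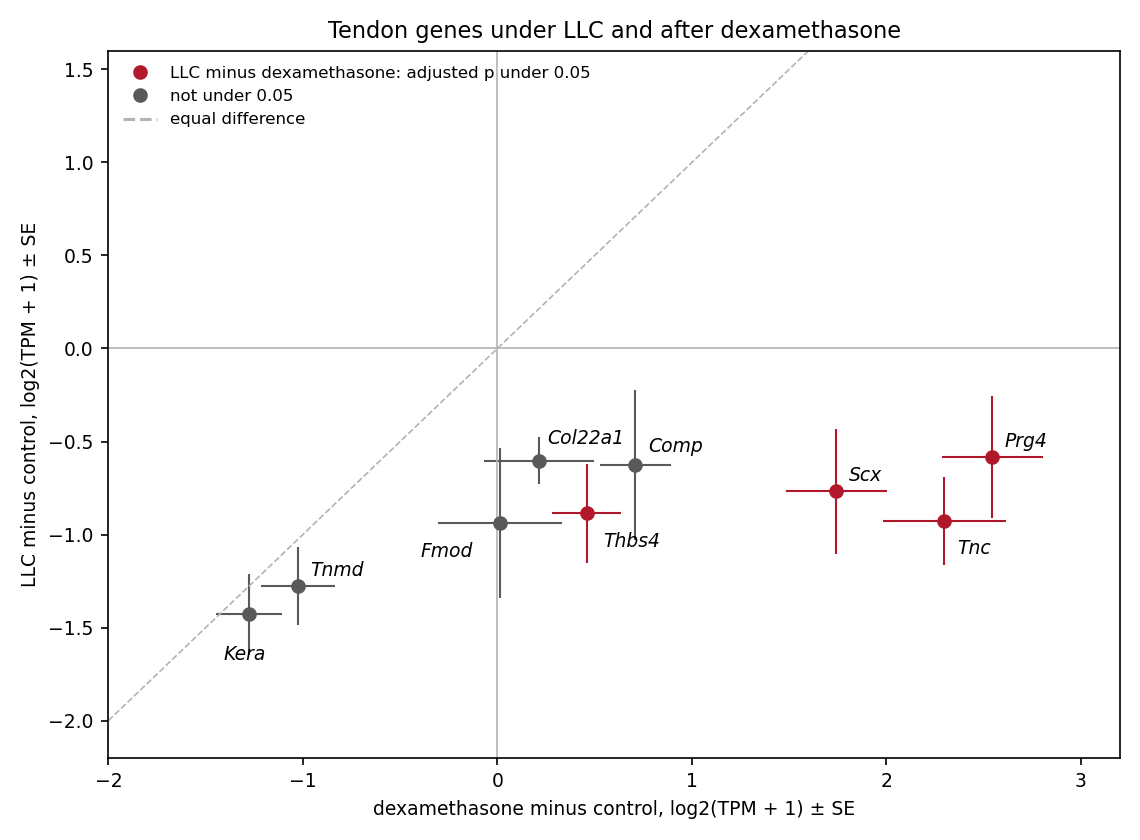
Each gene's difference after dexamethasone (x) and under LLC (y), both log2(TPM + 1) ± SE, in red where the 2 differences themselves differed at an adjusted p under 0.05, with the line of equal difference dashed. Kera and Tnmd lie near the line at the lower left, while Scx, Tnc and Prg4 lie far to its right.

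In the ageing experiment none of the 8 genes tested was called by limma, against 0.152% of all 10511 genes called higher and 0.019% called lower. Over all genes, 18 were called and 1174 had an unadjusted p under 0.05, with 0 called after scaling and 2 by voom on recovered reads. Fmod had 32.9, 34.9 and 41.2 TPM in old muscle, against 32.5, 18.9 and 16.9 TPM in young muscle. Comp had 8.01, 4.07 and 4.24 TPM in old muscle, against 3.32, 2.69 and 0.916 TPM in young muscle. In both genes every old library lay above every young one, although for Fmod the gap to young 1 was small. The log2 differences were 0.70 ± 0.19 for Fmod (adjusted p = 0.178) and 0.99 ± 0.27 for Comp (adjusted p = 0.169), or 0.56 and 0.85 above the median of all genes.

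Scx had 5.46, 4.96 and 8.70 TPM in old muscle, against 4.32, 4.37 and 3.81 TPM in young muscle, without overlap. Its log2 difference was 0.48 ± 0.18 (SE, adjusted p = 0.375), and the exact permutation test gave p = 0.1 for Scx, Fmod and Comp, the smallest value that 3 against 3 libraries allow. The share of all genes without overlap in ageing was not computed. Mkx, under the filter, also did not overlap, at 0.219, 0.0995 and 0.473 TPM in the old libraries, against 0.0802, 0.0962 and 0.0435 TPM in the young ones (exact permutation p = 0.1), on 7 to 28 reads in old and 3 to 7 reads in young libraries. Tnmd had 8.15, 7.22 and 5.34 TPM in old muscle, against 6.05, 3.87 and 4.13 TPM in young muscle, with overlap at young 1. Kera had 1.56, 2.20 and 2.76 TPM in old muscle, against 6.07, 2.07 and 2.02 TPM in young muscle, where young 1 stood far above the other libraries. The differences were 0.48 ± 0.18 for Tnmd (adjusted p = 0.381) and −0.36 ± 0.26 for Kera (adjusted p = 0.599).

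Prg4 averaged 3.11 ± 0.512 TPM in old muscle, against 1.82 ± 0.765 TPM in young muscle (SD, n = 3 each), a log2 difference of 0.57 ± 0.19 (adjusted p = 0.298). Thbs4 averaged 42.2 ± 5.49 TPM in old muscle, against 47.6 ± 11.7 TPM in young muscle. Col22a1 averaged 2.20 ± 0.488 TPM in old muscle, against 2.23 ± 0.882 TPM in young muscle, and Tnc, under the filter, 0.852 ± 0.360 TPM in old muscle, against 0.629 ± 0.269 TPM in young muscle. All 4 of these genes overlapped between the groups. The library young 1 held the highest young value of Tnmd, Kera, Fmod, Thbs4, Comp, Tnc, Prg4 and Col22a1. Without it Comp, Fmod and Prg4 were called higher in old muscle (adjusted p = 0.000714, 0.000197 and 0.0228). Comp was also called without old 2 (adjusted p = 0.000180) or young 2 (adjusted p = 0.00143), and Fmod without old 2 (adjusted p = 0.0146). The adjusted p ranged up to 0.957 for Comp, 0.974 for Fmod and 1.0 for Prg4 over the alternatives.

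In the other lists of tendon, matrix, junction and cell type genes, none of the genes tested was called in ageing.

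When the ageing difference was set against the others in 1 model, none of 9 genes was called between LLC and old age, against 0.00795% of all genes called higher and 0.0239% called lower. All 9 differences were negative, from −1.757 to −0.615, with a median of −1.155, beside −0.19 for all genes. Only 4 of all 12578 genes were called there, so the lack of a call does not show that the responses were alike. Tnc and Prg4 rose more after dexamethasone than with age, by 2.12 ± 0.46 (SE, adjusted p = 0.0152) and 1.97 ± 0.49 (SE, adjusted p = 0.0390), which makes 2 of 9 against 0.922% of all genes called higher. None of the 9 was called lower, against 0.413% of all genes. The Tnc call was lost without old 1 (adjusted p = 0.0552) or young 1 (adjusted p = 0.0565), in a range of 0.00731 to 0.299 over 19 alternatives. The Prg4 call was lost, at adjusted p between 0.0587 and 0.137, without old 1, old 2, old 3, young 1, young 2, dexamethasone control 1, 2 or 4, or dexamethasone 2 or 3.

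In the siRNA experiment Cyr61 itself averaged 39.2 ± 12.3 TPM with Cyr61 siRNA and 56.6 ± 13.9 TPM with NT siRNA (SD, n = 4 each), a log2 difference of −0.53 ± 0.25 (adjusted p = 0.999). None of the 7 tendon genes tested was called by limma, against 0.0% of all 11006 genes called higher and 0.0% called lower. Over all genes 109 had an unadjusted p under 0.05, and voom on recovered reads also called 0. All 7 differences were positive, between 0.16 and 0.84, beside a median of 0.07 for all genes, and every one overlapped between groups and stayed positive with scaling.

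Fmod had 3.74, 10.1, 9.22 and 13.4 TPM with Cyr61 siRNA, against 6.22, 2.06, 10.1 and 2.03 TPM with NT siRNA. Tnmd had 1.01, 1.85, 1.36 and 5.80 TPM with Cyr61 siRNA, against 1.87, 0.568, 2.62 and 0.348 TPM with NT siRNA. Comp had 0.237, 1.29, 2.43 and 5.84 TPM with Cyr61 siRNA, against 0.934, 0.224, 2.06 and 0.194 TPM with NT siRNA. In all 3 genes the same 2 NT siRNA libraries, 2 and 4, were the lowest of their group. Cyr61 siRNA 1 was the lowest of its group in all 3, and Cyr61 siRNA 4 was the highest library of both groups. Scx had 3.11, 3.19, 18.6 and 7.63 TPM with Cyr61 siRNA, against 5.55, 6.40, 5.78 and 4.67 TPM with NT siRNA, so that Cyr61 siRNA 3 alone carried the higher mean. Without it the difference was −0.31, against 0.16 ± 0.44 (SE) with all libraries. Kera, Tnc and Mkx stayed under the filter, with Kera at 0.438 ± 0.490 TPM with Cyr61 siRNA and 0.264 ± 0.289 TPM with NT siRNA (SD, n = 4 each), on 1 to 47 reads and 4 to 26 reads.

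Within groups, the 10 genes tended to vary together. Deviations of log2(TPM + 1) from the group mean were correlated over the 30 libraries for all 45 pairs. Pearson's r was positive in 40 pairs, with a median of 0.45, and 22 pairs had an adjusted p under 0.05 in a permutation test within groups (100000 permutations, two-sided, adjusted over the 45 pairs). The tightest pairs were Thbs4 with Prg4 (r = 0.885, Spearman's rho = 0.859, adjusted p = 0.00045) and Thbs4 with Comp (r = 0.838, rho = 0.823, adjusted p = 0.00045). Without the 2 libraries farthest from the median of Thbs4, r was 0.823 and 0.798. Tnmd went with Fmod (r = 0.775, rho = 0.790, adjusted p = 0.0012; 0.768 without 2 libraries) and with Kera (r = 0.657, rho = 0.636, adjusted p = 0.00235; 0.558 without 2 libraries). Scx correlated past the threshold with Tnc alone (r = 0.535, rho = 0.546, adjusted p = 0.0367; 0.538 without 2 libraries), and its r with Tnmd, Kera, Fmod and Col22a1 lay between −0.26 and −0.01, none past the threshold. Without 2 libraries r was 0.185 with Tnmd, 0.089 with Kera, 0.165 with Fmod and −0.227 with Col22a1, so that the sign turned for the first 3. All libraries of a group share that group's mean, and depth and the share of tendon in the sample also vary among libraries. The deviations are of TPM without scaling, and the mitochondrial share of TPM varied within groups, from 46.5 to 60.4% in the LLC libraries. Correlations between other pairs of genes were not computed, so the 22 of 45 pairs stand without a background share.

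**Figure D4:**
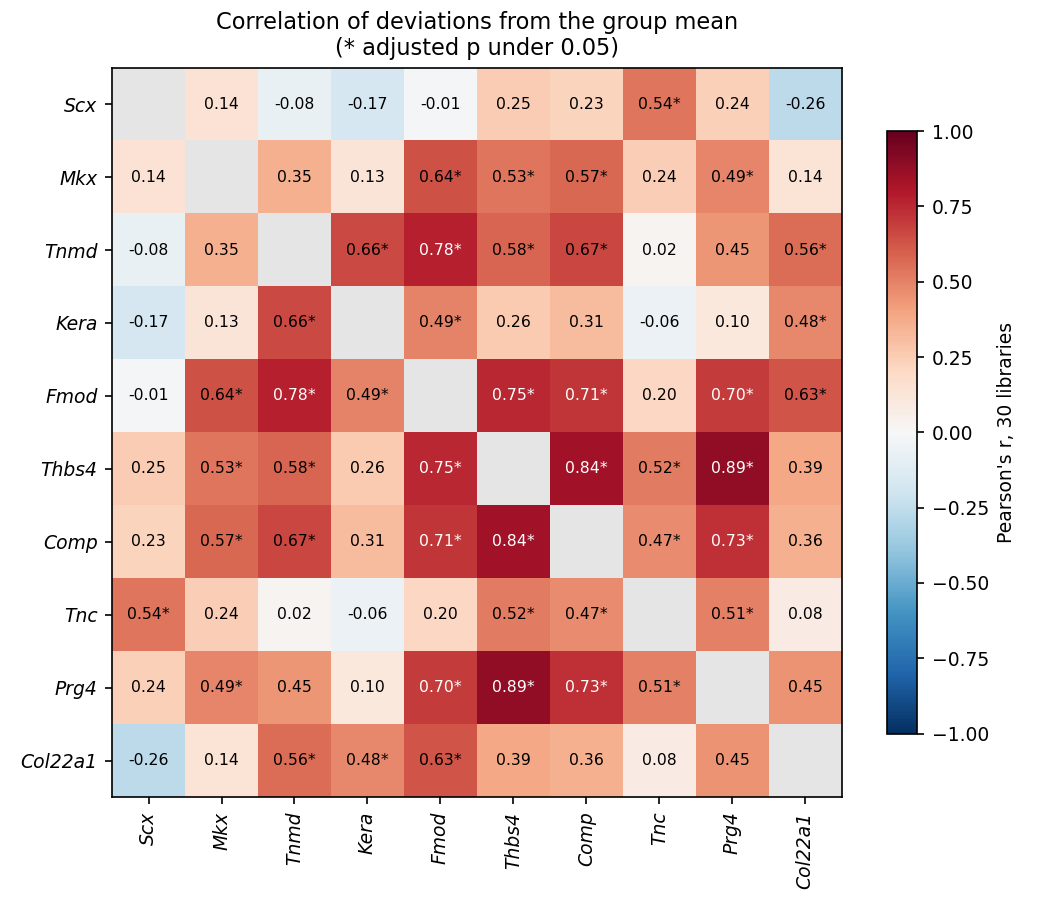
Pearson's r between each pair of the 10 genes, computed over 30 libraries from deviations of log2(TPM + 1) from the group mean, with an asterisk where the permutation p, adjusted over 45 pairs, was under 0.05. A block of Fmod, Thbs4, Comp and Prg4 has r of 0.70 or more in every pair, and Scx is tied past the threshold only to Tnc.

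Of 11321 genes with a mean of at least 1 TPM, those whose within-group deviations were most like the mean of 9 tendon genes (Mkx left out for its level) were Cpxm2 (r = 0.88), Thbs2 (r = 0.876), Fbln1 (r = 0.843), Lrp1 (r = 0.818), C1qtnf1 (r = 0.815), Scara3 (r = 0.813), Cd163 (r = 0.812), Ssc5d, Golim4 and Pamr1 (r = 0.808 each), over 30 libraries. Most like Col22a1 alone were Fgfbp3 (r = 0.768), Pik3ip1 (r = 0.761) and Herc2 (r = 0.76). These are descriptions of likeness, picked as the highest of all genes.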

How the data were processed

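RNA of 30 tibialis anterior samples was extracted with Trizol, made into TruSeq stranded mRNA libraries and read by a NovaSeq sequencer, per the labels' protocols. The authors deposited 1 table of TPM, whose columns were matched to samples by title. The build was mm10, per the submitters' processing notes. The sources used here name no aligner, counter, strand setting or annotation.

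Low TPM of a gene stood in ratios of whole numbers, so reads could be recovered, within a tolerance of 0.05 read, for the 23193 genes above 0. For Scx, Mkx, Kera and Comp the gene length was inferred, so their reads may be low by a whole factor. Reads carry no molecular identifiers, so they speak for counting error alone. Gene places came from GENCODE M21.

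Libraries were grouped by label. limma 3.58.1 in R 4.3.3 fitted log2(TPM + 1) with a variance trend per pair of groups, and the differences between experiments in 1 fit of 8 groups, over genes that reach 1 TPM in a number of libraries equal to the smaller group's size (two-sided). Alternatives changed the pseudocount to 0.1 or 0.5 and the filter to none or 5 TPM, or used median-of-ratios scaling, all groups in 1 fit, a replicate block, voom on recovered reads, or 1 library fewer, and, added after seeing the data, scaling with the block. Steps were tested on simulated data. No 2 libraries of the same group agreed within sampling noise, and libraries of different groups were not compared in this way. The 10 genes and the other lists were chosen with earlier results of these data known. From each list, up to 3 called genes per direction with the largest difference could be named, and where none was called up to 3 with the smallest p; of likeness to the tendon genes, the 10 highest, and the 3 highest to Col22a1. Lists are described by counts and medians, without a set test. Python 3.11.15 with numpy 2.4.6, pandas 2.3.3, scipy 1.17.1 and matplotlib 3.10.9 was used.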

Additional observations from a re-analysis of the deposited data

Results flagged for a closer look

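Each of the 60 combinations of a tendon gene and a group of 4 libraries was checked for a library far from the other 3 by Dixon's criterion, the gap to its nearest neighbour as a share of the group's range, at its 95% critical value. Chance alone marks about 1 in 20 such groups, and 2 of 60 were marked. Kera was at 0.695 TPM in NT siRNA 3, far above the other NT siRNA libraries, which lay between 0.0926 and 0.160 TPM, and the gap took 0.889 of the range. Tnc was at 1.66 TPM in Cyr61 siRNA 3, far above the other Cyr61 siRNA libraries, which lay between 0.142 and 0.321 TPM, and the gap took 0.882 of the range. Both genes were under the filter in the siRNA comparison. These libraries did enter the fit of all 30 libraries behind the differences between experiments.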

How the results depend on the processing

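Of 1056 alternative values of single tendon genes, 966 kept the direction and side of the threshold, 44 lost a call, 22 gained one and 24 changed sign. The count of tendon genes called stayed within 1.5 times after dexamethasone (6 as fitted) and in the LLC minus dexamethasone difference (4), and stayed at 0 with Cyr61 siRNA and in the LLC minus old difference. Under LLC (3 as fitted) it was 0 with no filter, 6 with the replicate block, 1 with scaling and the block, and 0 to 5 when each library was left out. In the dexamethasone minus old difference (2) it was 0 with pseudocounts of 0.1 or 0.5, 1 with the filter of 5 TPM and 0 to 2 with a library left out. In ageing (0) it was 2 with the replicate block and 0 to 3 with a library left out. Replicate numbers were not taken as pairs in the main fits. Deviations of same-numbered libraries from their group means correlated by 0.027 to 0.498, all positive, and in no experiment were all values above 0.1. In every experiment the same-numbered library was the closest partner for some replicates and not for others. Whether replicate numbers mark a shared batch was not tested.

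All genes called under LLC (128 as fitted) numbered 8 with no filter, 81 with the 5 TPM filter, 351 with scaling, 502 with the replicate block, 262 by voom, 320 with scaling and the block, and 19 to 361 with a library left out. After dexamethasone (4470) they numbered 1093 with scaling, 1869 by voom, 1599 with scaling and the block, and 1918 to 8715 with a library left out. In ageing (18) they numbered 0 with no filter, with scaling, and with scaling and the block, 5 with all groups in 1 fit, 152 with the replicate block, 2 by voom and 0 to 274 with a library left out.

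Sign changes were in differences that were not called. With scaling, with or without the block, Col22a1 was −0.078 after dexamethasone and −0.082 in ageing, and Fmod was −0.33 after dexamethasone. By voom Fmod was −0.17 after dexamethasone and Col22a1 −0.010 in ageing. In the LLC minus dexamethasone difference Kera was 0.21 with a pseudocount of 0.1 and Tnmd 0.014 with scaling. With a library left out, differences after dexamethasone ran from −0.041 to 0.38 for Col22a1 and from −0.27 to 0.27 for Fmod. In ageing they ran from −0.17 to 0.22 for Col22a1, from −0.57 to 0.041 for Kera and from −0.32 to 0.029 for Thbs4. In the dexamethasone minus old difference they ran from −0.054 to 0.38 for Col22a1 and from −0.51 to 0.072 for Comp, and in the LLC minus dexamethasone difference from −0.38 to 0.034 for Kera. With Cyr61 siRNA they ran from −0.31 to 0.44 for Scx. The causes were not tested. Groups of 3 or 4 libraries limit what single genes near 1 TPM can show.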
